A study of Mus musculus with 7 samples.

Results

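The genes described here are those that carry a cell through mitosis. The list held 38 genes chosen by name, and 37 of them were measured, out of 19938 genes on the arrays. Each gene was read from the probe set that carried its symbol alone, taking the set with the highest mean over the 7 arrays where there was more than 1. No such probe set was found for the cyclin gene Ccnb1, so it was not analysed here. All 37 measured members lay at or above the median mean level of all genes.

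The arrays compared mouse fibroblasts with pluripotent cells in several culture media. Embryonic fibroblasts (MEFs), taken at 13.5 days post coitum from 129/OG2 mice, were grown in FBS on 1 array and in the medium iCD1 on 1 array. OG2 mice carry a green fluorescent reporter under the Oct4 promoter. Induced pluripotent (iPS) lines came from mouse embryonic fibroblasts infected with Oct4 and carried the names O4-1, O4-2 and O4-4, with no strain given. Each line was hybridised once after culture in KSR, and O4-1 once more after culture in N2B27 with 2i. The series was completed by 1 array of OG2 embryonic stem (ES) cells in N2B27 with 2i. Some label fields disagree with others. The description calls every array iPS cells at day 3 after infection, and the source field names iCD1 for the iPS lines and fibroblasts for the ES cells. Titles and growth conditions were followed. No label says that arrays came from separate cultures, so p-values measure only the spread between these arrays, which may be partly technical.

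Entry into mitosis is driven by the kinase CDK1 with its cyclins and is switched on by CDC25 phosphatases. Polo and Aurora kinases then build the spindle, and the spindle checkpoint holds back the anaphase-promoting complex until every chromosome is attached. Many of the genes for this machinery are held off in resting cells by the DREAM complex and switched on late in the cell cycle by B-MYB, the product of Mybl2, and FOXM1. Their promoters often carry a CHR element and CCAAT boxes bound by NF-Y, whereas genes of DNA replication are classically driven earlier by E2F factors. Mouse pluripotent cells are known for a short cell cycle with brief gap phases.

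Promoter sequences of chosen mitosis and replication genes are given as examples, and the lists as a whole are compared in the next paragraph. Each line gives the 120 bases before the annotated start site, 5′ to 3′ on the gene's own strand, from RefSeq with build GRCm38.p6. Capitals mark TTTGAA (CHR) and CCAAT on either strand, so that TTCAAA and ATTGG are the same elements read in reverse, and the E2F forms TTTGGCGC, TTTCCCGC, TTTGCCGC, TTTCGCGC and GGCGGGA. The first 5 genes are mitosis genes with a CHR element and cover rising, uncalled and low members, Mybl2 is the member with the largest rise, and Orc1 and Mcm6 are replication genes.
Cdc20: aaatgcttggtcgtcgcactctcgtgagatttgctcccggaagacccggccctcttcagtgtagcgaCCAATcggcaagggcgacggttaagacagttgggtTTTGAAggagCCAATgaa
Espl1: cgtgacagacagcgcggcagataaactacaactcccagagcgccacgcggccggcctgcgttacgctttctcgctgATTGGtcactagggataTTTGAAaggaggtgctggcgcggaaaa
Kif11: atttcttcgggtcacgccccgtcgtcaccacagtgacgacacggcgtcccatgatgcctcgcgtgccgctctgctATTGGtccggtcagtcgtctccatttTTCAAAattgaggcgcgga
Cdk1: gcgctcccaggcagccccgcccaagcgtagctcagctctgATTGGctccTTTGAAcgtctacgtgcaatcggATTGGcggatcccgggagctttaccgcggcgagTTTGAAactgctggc
Mki67: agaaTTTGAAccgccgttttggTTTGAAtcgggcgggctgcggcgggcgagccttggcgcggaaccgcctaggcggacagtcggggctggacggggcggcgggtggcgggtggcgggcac
Mybl2: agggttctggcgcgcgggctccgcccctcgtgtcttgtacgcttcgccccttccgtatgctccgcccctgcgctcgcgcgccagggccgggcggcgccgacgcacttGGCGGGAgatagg
Orc1: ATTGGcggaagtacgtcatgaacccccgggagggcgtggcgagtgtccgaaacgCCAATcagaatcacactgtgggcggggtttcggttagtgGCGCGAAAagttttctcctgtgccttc
Mcm6: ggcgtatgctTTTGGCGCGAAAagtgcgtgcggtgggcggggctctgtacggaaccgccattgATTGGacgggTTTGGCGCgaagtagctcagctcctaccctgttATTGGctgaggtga
These stretches lie at chr4:118437344-118437463 (minus strand), chr15:102296173-102296292 (plus strand), chr19:37376262-37376381 (plus strand), chr10:69352913-69353032 (minus strand), chr7:135716380-135716499 (minus strand), chr2:163054515-163054634 (plus strand), chr4:108579334-108579453 (plus strand) and chr1:128359706-128359825 (minus strand). Cdc20, Espl1 and Kif11 share the order of a CCAAT box upstream of a CHR element, with differing spacing and strands. The CHR element starts at position -18, -27 and -19 and the CCAAT box at -53, -44 and -45. Cdk1 has a like pair, with CCAAT at -48 and CHR at -15, and a closer pair farther upstream, at -80 and -71. It also has a long E2F form at -131, outside the stretch shown. Mybl2 has neither element in the stretch shown and has GGCGGGA at -13.

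Over the whole windows, which ran from 250 bases before to 50 bases after each start, 31 of the 38 mitosis genes had a promoter in the table. A CHR element was present in 19 of these 31 (61.3%), against 19.4% of 36 replication genes and 20.2% of 27025 genes in the table. CCAAT, with or without CHR, was in 77.4% of the mitosis genes, 61.1% of the replication genes and 41.1% of all genes. CHR and CCAAT stood together in 58.1% of the mitosis genes, 8.33% of the replication genes and 7.97% of all genes. One of the long E2F forms or GGCGGGAA was found in 6.45% of mitosis genes, 50.0% of replication genes and 4.46% of all genes. The shorter core GGCGGGA, which lies within GGCGGGAA and was added after the windows had been read, was in 32.3% of mitosis genes, 38.9% of replication genes and 12.7% of all genes. Any of these E2F forms, the shorter core included, was in 35.5% of mitosis genes, 61.1% of replication genes and 14.3% of all genes. A match is a description of the letters and not a measured binding site.

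**Figure D1:**
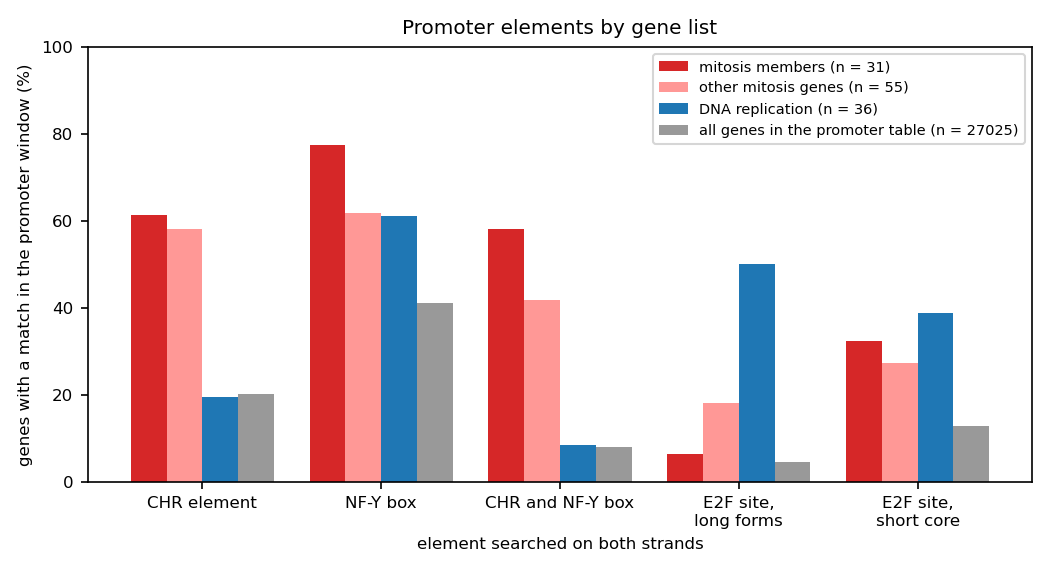
Share of genes (%, vertical axis) with each promoter element in the 300-base window, for the mitosis members (n = 31), other mitosis genes (n = 55), DNA replication genes (n = 36) and all genes of the table (n = 27025). CHR elements mark both mitosis lists (61.3% and 58.2%) while the long E2F forms mark the replication genes (50.0%).

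Cell type markers separated the MEF arrays from the pluripotent arrays, as the titles state. They do not check the medium, the line or ES against iPS cells. The 9 pluripotent cell markers, Pou5f1 and Nanog among them, had a mean log2 expression of 4.21 in FBS and 4.22 in iCD1. On the pluripotent arrays it was 9.85 to 10.25. In the KSR lines against MEFs 9 of 9 rose, where 12.1% of all genes did, by the threshold given below. The 9 fibroblast markers averaged 9.65 and 10.13 on the MEF arrays and 6.35 to 7.35 on the pluripotent ones, highest in O4-4. In the KSR lines against MEFs 8 of 9 fell, where 14.3% of all genes did. Col1a1 still read 8.90 to 10.32 on the pluripotent arrays. The 6 macrophage markers averaged 4.61 in FBS, 5.02 in iCD1 and 3.99 to 4.44 on the pluripotent arrays, with Lyz2 at 6.83 in iCD1 and 4.99 in FBS. These marker levels moved with the comparisons below, and their part in the results was not tested. All values below are log2 expression, so a difference of 1 is a 2-fold change.

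In the 3 iPS lines in KSR, the mitosis genes stood moderately above both MEF cultures, and less so than the replication genes. Of the 37 members, 18 rose and 1, Cdc25b, fell, and 18 did not pass (limma, Benjamini-Hochberg adjusted p under 0.05 over all genes). That is 48.6% risen against 12.1% of all 19938 genes, with 14.3% of all genes fallen. Since all members are well expressed, the closer background is the 21.3% that rose among genes at or above the median level. The median difference was 0.58, a 1.5-fold step, with the middle of the list between 0.26 and 0.90, while the median of all genes was 0.00. In bulk samples a larger share of dividing cells and more RNA per cell cannot be told apart. The count rested on few arrays: without line O4-1 or without O4-2 no member and no other gene passed, with 19 and 23 members at an unadjusted p under 0.05 (limma) beside 29.1% and 34.7% of all genes. With every array these were 25 members and 39.0% of all genes. Without O4-4 5 members rose and none fell, where 6.05% of all genes rose and 7.87% fell. The median stayed between 0.52 and 0.65 in these fits. With MEFs in FBS as the only reference 7 members rose, where 6.55% of all genes did, and Cdc25b passed against neither MEF culture alone.

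**Figure D2:**
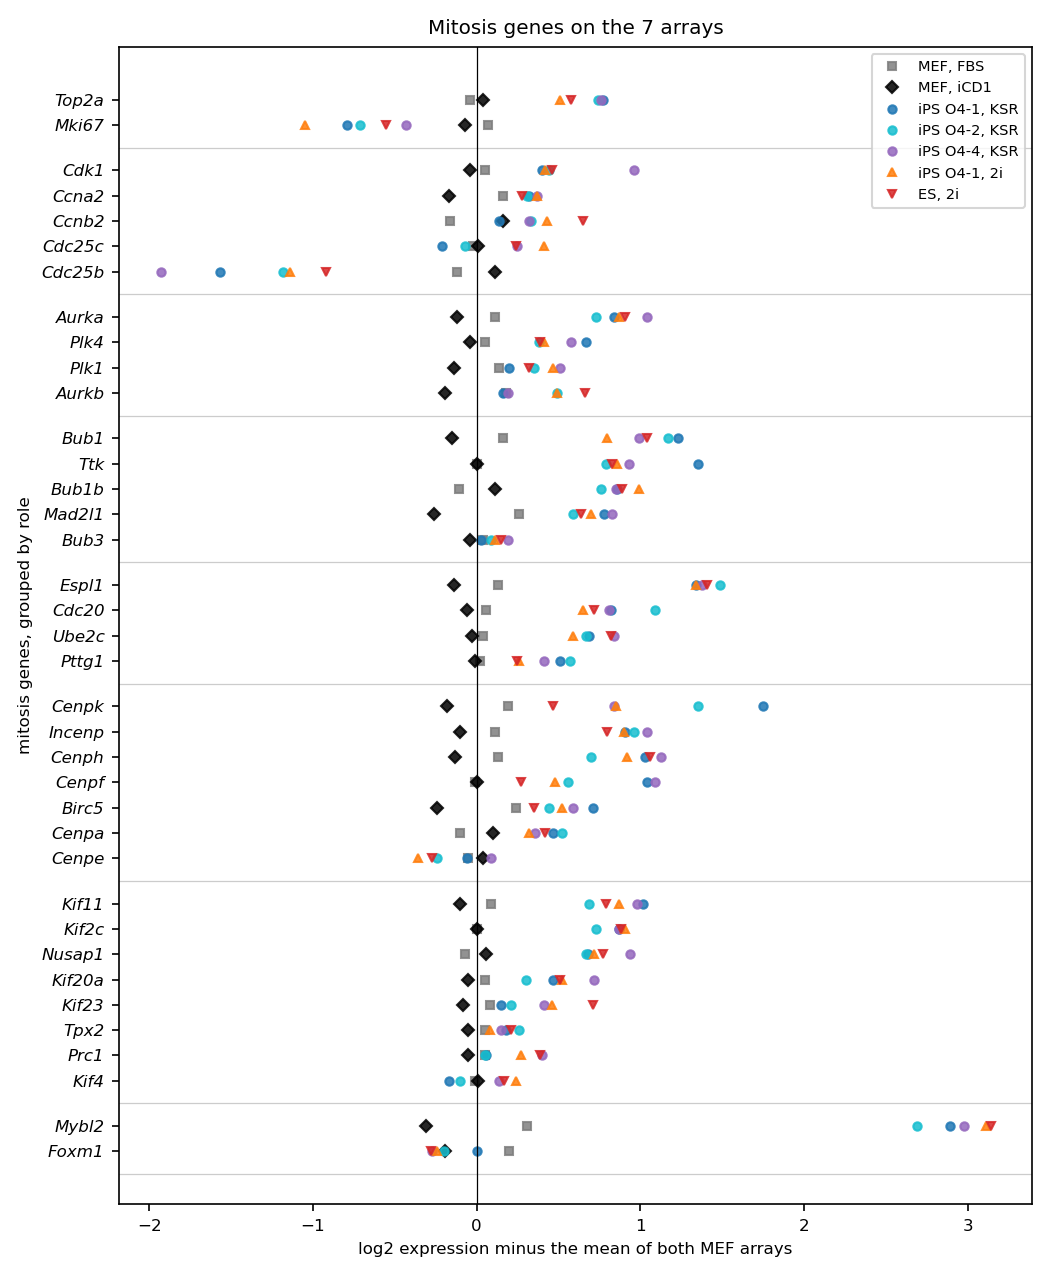
Log2 expression of each of the 37 measured mitosis genes on each array minus the mean of both MEF arrays (horizontal axis), grouped by role; each point is 1 array. Most pluripotent points lie to the right of 0, Mybl2 stands farthest at a difference of 2.86, and Cdc25b and Mki67 lie to the left.

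Counting arrays gives the same picture without a model. On all 5 pluripotent arrays 28 of the 37 members (75.7%) were above both MEF arrays, against 21.9% of all genes and 32.7% of those at or above the median level. The 2 members below both MEF arrays on all 5 were Mki67 and Cdc25b, where 22.0% of all genes lay below. The remaining 7, Ccnb2, Cdc25c, Aurkb, Bub3, Cenpe, Kif4 and Foxm1, overlapped between the groups.

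The 2 transcription factors of the list parted. Mybl2, which encodes B-MYB, read 6.65 in FBS and 6.03 in iCD1, 9.23, 9.03 and 9.32 in lines O4-1, O4-2 and O4-4 in KSR, 9.45 in O4-1 in 2i and 9.48 in ES cells. All pluripotent arrays lay far above both MEF arrays, and the KSR lines differed from MEFs by 2.86 ± 0.13 (SE; 7.24-fold, limma adjusted p = 0.00659). Without O4-1 or O4-2 the difference was 2.84 or 2.94 with a limma adjusted p of 0.0833 or 0.0503. Foxm1, a forkhead factor of the same gene programme, read 6.82 in FBS, 6.43 in iCD1, 6.62, 6.42 and 6.35 in the KSR lines, 6.38 in 2i and 6.34 in ES cells. Its groups overlapped, and the difference of -0.16 ± 0.12 did not pass (limma adjusted p = 0.437).

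The spindle checkpoint, which delays anaphase until all kinetochores are attached, had 4 of 5 members raised, with a median difference of 0.82. Beside this and the counts of the roles below, 12.1% of all genes rose, or 21.3% at or above the median level. Bub1, a checkpoint kinase at the kinetochore, read 8.20 and 7.89 in MEFs in FBS and iCD1, 9.27, 9.21 and 9.03 in the KSR lines, 8.84 in 2i and 9.08 in ES cells. The lowest pluripotent array was above the higher MEF array, and the rise was 1.13 ± 0.12 (limma adjusted p = 0.012). Ttk, the MPS1 kinase that starts checkpoint signalling, was at 6.64 on both MEF arrays, at 7.99, 7.43 and 7.57 in KSR, and at 7.50 and 7.47 in 2i iPS and ES cells. Line O4-1 stood above the other 4 arrays, all 5 were above the MEFs, and the rise was 1.02 ± 0.21 (limma adjusted p = 0.0442). Bub1b, which encodes the checkpoint protein BUBR1, read 8.08 and 8.30 in MEFs and 8.95 to 9.18 on the pluripotent arrays, a rise of 0.82 ± 0.09. Mad2l1, encoding the MAD2 inhibitor of CDC20, rose by 0.74 ± 0.12, from 9.16 in FBS and 8.64 in iCD1. Bub3 was the exception at 9.30 to 9.53 on every array.

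All 4 members that trigger anaphase and the separation of sister chromatids rose, with a median of 0.82. Espl1, which encodes separase, the protease that cuts cohesin, read 6.73 in FBS and 6.46 in iCD1, 7.94, 8.09 and 7.98 in KSR, 7.94 in 2i and 8.01 in ES cells. The 5 pluripotent arrays lay within 0.15 of each other and above both MEF arrays, and the rise of 1.41 ± 0.10 was 2.65-fold (limma adjusted p = 0.00801). Cdc20, the activator through which the checkpoint acts on the anaphase-promoting complex, read 7.78 and 7.66 in MEFs, 8.54, 8.81 and 8.53 in KSR, 8.37 in 2i and 8.44 in ES cells. Its rise of 0.91 ± 0.14 separated all arrays of the groups (limma adjusted p = 0.0224). Ube2c, the ubiquitin-conjugating enzyme of the complex, rose by 0.73 ± 0.10, and Pttg1, encoding the separase inhibitor securin, by 0.50 ± 0.10.

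Of 7 members of the chromosomal passenger complex and the centromere, 4 rose, and the median difference was 0.90. Incenp, the scaffold of the passenger complex, read 6.96 and 6.75 in MEFs, 7.76, 7.81 and 7.89 in KSR, 7.75 in 2i and 7.65 in ES cells, a rise of 0.97 ± 0.09 with no overlap (limma adjusted p = 0.0106). Cenph, a component of the inner kinetochore, read 7.20 and 6.94 in MEFs, 8.10, 7.77 and 8.20 in KSR, 7.99 in 2i and 8.13 in ES cells, a rise of 0.96 ± 0.17 (limma adjusted p = 0.0337). Birc5, which encodes survivin, rose by 0.58 ± 0.12, and Cenpa, the centromeric histone H3 variant, by 0.45 ± 0.10. Cenpk, another inner kinetochore gene, differed by more, 1.31, but with the widest spread of the list: 5.00 and 4.63 in MEFs, 6.56, 6.16 and 5.65 in KSR, 5.66 in 2i and 5.28 in ES cells. Its arrays did not overlap, yet with an SE of 0.32 it did not pass (limma adjusted p = 0.0626). Cenpf, a large kinetochore protein, missed at 0.90 ± 0.21 (limma adjusted p = 0.0592), and Cenpe, the kinetochore motor, differed by -0.07 ± 0.14.

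Among the 8 spindle motors and microtubule factors 3 rose, and the median was 0.38. Kif11, the kinesin that pushes spindle poles apart, read 7.94 and 7.75 in MEFs, 8.87, 8.54 and 8.83 in KSR, 8.72 in 2i and 8.64 in ES cells. No pluripotent array reached down to the MEF arrays, and the rise was 0.90 ± 0.15 (limma adjusted p = 0.026). Kif2c, a microtubule-depolymerising kinesin, was at 8.05 on both MEF arrays, at 8.92, 8.78 and 8.92 in KSR, and at 8.96 and 8.93 in 2i iPS and ES cells. It rose by 0.82 ± 0.10 (limma adjusted p = 0.0146), and Nusap1, a microtubule-binding spindle protein, rose by 0.77 ± 0.13. The 5 others did not pass. Kif20a differed by 0.50 ± 0.16, Kif23 by 0.26 ± 0.12, Prc1 by 0.17 ± 0.16 and Kif4 by -0.04 ± 0.14. Tpx2, which targets Aurora A to the spindle, differed by 0.20 ± 0.09. For Kif20a, Kif23, Prc1 and Tpx2 all 5 pluripotent arrays nevertheless lay above both MEF arrays, while Kif4 overlapped.

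The kinases gave 1 rise among 4 members. Aurka, the centrosomal Aurora kinase, read 8.31 in FBS and 8.08 in iCD1, 9.04, 8.93 and 9.24 in KSR, 9.07 in 2i and 9.11 in ES cells. All pluripotent arrays exceeded both MEF arrays, and the rise was 0.87 ± 0.13 (limma adjusted p = 0.0235). Aurkb, the kinase of the passenger complex, differed by 0.28 ± 0.15 and overlapped. Plk1, the polo kinase of mitotic entry, differed by 0.35 ± 0.13, and Plk4, which starts centriole duplication, by 0.54 ± 0.13 (limma adjusted p = 0.0594).

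The core engine of mitotic entry, read here without Ccnb1, had no called rise in the KSR comparison. In a role of 5 genes this is near the 12.1% of all genes that rose, or 21.3% at or above the median level. Of Cdk1, Ccna2, Ccnb2, Cdc25b and Cdc25c none passed as risen and 1 fell, with a median of 0.26. Cdc25b, a phosphatase that activates CDK1 at entry, read 6.86 in FBS and 7.09 in iCD1, 5.41, 5.80 and 5.05 in KSR, 5.84 in 2i and 6.06 in ES cells. All 5 pluripotent arrays lay below both MEF arrays, and the KSR lines were 2.94-fold lower, a difference of -1.56 ± 0.27 (limma adjusted p = 0.0296). The values without O4-1, O4-2 or O4-4 were -1.55, -1.75 and -1.37, none of which passed. Its paralogue Cdc25c differed by -0.01 ± 0.18. Cdk1 read 7.40 and 7.31 in MEFs and 7.75, 7.79 and 8.31 in KSR, a difference of 0.60 ± 0.23 that did not pass (limma adjusted p = 0.151), with O4-4 above all others. Ccna2 (0.34 ± 0.08) and Ccnb2 (0.26 ± 0.11), its cyclins, did not pass either. For Cdk1 and Ccna2 all 5 pluripotent arrays nevertheless lay above both MEF arrays, while Ccnb2 and Cdc25c overlapped.

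The 2 members that act on chromosomes themselves went separate ways. Top2a, the topoisomerase that untangles sister chromatids, read 9.30 and 9.38 in MEFs, 10.11, 10.08 and 10.10 in KSR, 9.85 in 2i and 9.92 in ES cells, and rose by 0.76 ± 0.08 (limma adjusted p = 0.0125). Mki67, which encodes the proliferation antigen Ki-67 that coats mitotic chromosomes, read 8.46 and 8.32 in MEFs, 7.60, 7.68 and 7.96 in KSR, 7.34 in 2i and 7.84 in ES cells. All 5 pluripotent arrays were below both MEF arrays, and the difference of -0.64 ± 0.15 just missed the threshold (limma adjusted p = 0.0591). It passed when genes below the median level were left out (limma adjusted p = 0.0267), after quantile normalisation (0.036) and with all 5 pluripotent arrays as 1 group (0.0132).

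The question of whether mitosis genes rise as replication genes do can be answered by setting the lists side by side. Of 44 measured replication genes 37 rose (84.1%) and none fell in the KSR lines, and their median difference was 1.28, or 2.42-fold, against 0.58 for mitosis. The list medians therefore differed by -0.70, and only 3 of 37 mitosis members, Mybl2, Espl1 and Cenpk, lay above the replication median. A difference of 1 or more was seen in 28 replication genes, 5 mitosis genes and 7.43% of all genes. The 5 were Mybl2, Espl1, Cenpk, Bub1 and Ttk. The largest replication rises were those of Orc1, a subunit of the origin recognition complex (2.58 ± 0.30), Mcm10 (2.42 ± 0.12), Rpa2 (1.93 ± 0.17) and Gmnn, encoding the licensing inhibitor geminin (1.85 ± 0.16). Among the replication genes at the low end were Rrm1, a subunit of ribonucleotide reductase, at -0.35 ± 0.14 and Tk1, thymidine kinase, at 0.07 ± 0.14. Tk1 had 2 probe sets and was read from the one with the higher mean. All 5 pluripotent arrays exceeded both MEF arrays in 41 of 44 replication genes and in 28 of 37 mitosis genes. No test was applied to the difference between the lists, which were chosen with results known.

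**Figure D3:**
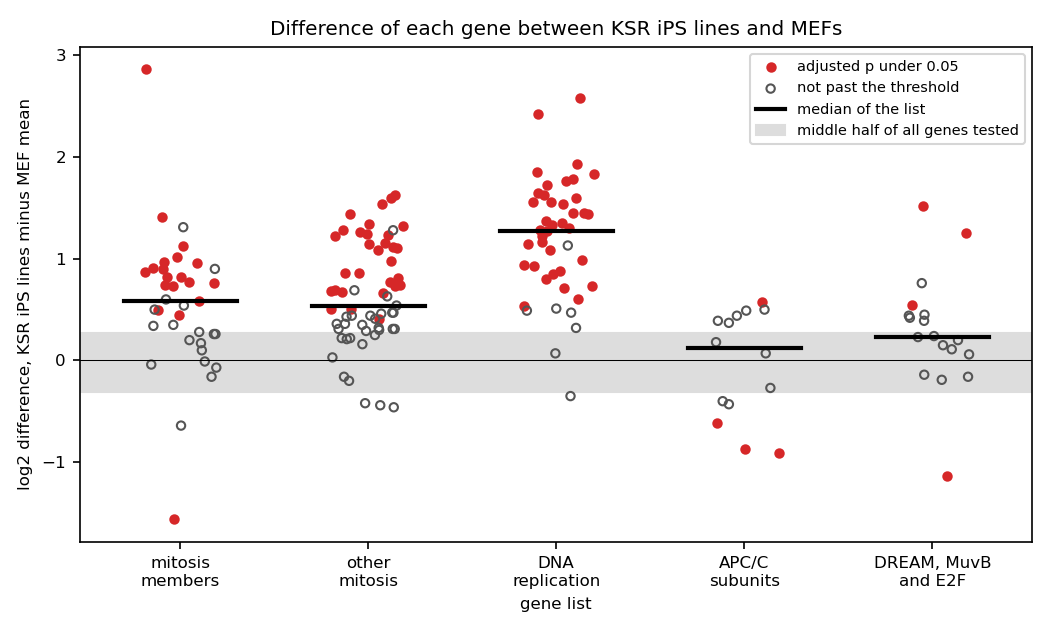
Log2 difference of the 3 KSR lines from the mean of both MEF arrays for each gene (points) by list, with the list medians. The mitosis median is 0.58 and the replication median 1.28, and Mybl2, at 2.86, is the highest point of the plot while most other mitosis genes lie below the replication median.

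The mitosis genes were also set against each fibroblast culture on its own. With all 5 pluripotent arrays as 1 group, 15 members rose and none fell against MEFs in FBS (40.5%, against 10.1% of all genes higher, or 18.2% at or above the median level, and 12.3% lower), with a median of 0.49. Against MEFs in iCD1 17 rose and Cdc25b fell (45.9%, against 11.9%, or 20.6% at or above the median level, and 14.9%), with a median of 0.58. Both comparisons use the same pluripotent arrays, 2 of which are line O4-1. With the 3 KSR lines alone in the 5-group fit, 7 members rose against FBS, where 6.55% of all genes did, and the fall of Cdc25b against iCD1 was lost there and without either O4-1 array. The replication medians were 1.13 and 1.31, with 37 and 36 of 44 risen. Against FBS, against iCD1 and in the comparison of KSR lines, the same 14 members rose. They were Aurka, Bub1, Bub1b, Cdc20, Cenph, Espl1, Incenp, Kif11, Kif2c, Mybl2, Nusap1, Top2a, Ttk and Ube2c. These comparisons share arrays, and the overlap was not counted over all genes. In the fit with all 5 pluripotent arrays as 1 group, Mybl2 rose by 2.65 ± 0.19 from FBS and by 3.28 ± 0.19 from iCD1. Espl1 rose there by 1.26 ± 0.12 and 1.53 ± 0.12. Ccna2, Birc5 and Mad2l1 passed against iCD1 (0.50, 0.77 and 0.97) and not against FBS (0.17, 0.28 and 0.45), whereas Cenpa passed against FBS (0.52) and not against iCD1 (0.31). Passing in one comparison only does not show that the references differed for a gene. In all, 17 members passed in none of the 3 comparisons with MEFs, a count not made over all genes.

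The move of MEFs from FBS to iCD1 left the mitosis genes near their level or slightly lower. With 1 array on each side there is no test. In iCD1 25 members read lower and 12 higher, with a median of -0.10, beside 53.0% of all genes lower and 44.8% higher. The replication genes had a median of -0.17, with 31 of 44 lower. No member differed by 2-fold, a size reached upward by 1.70% and downward by 0.998% of all genes. Mybl2 was lowest at -0.62, followed by Mad2l1 at -0.52 and Birc5 at -0.49, and Ccnb2 was highest at 0.31.

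Within the pluripotent cells the mitosis genes lay close together. The SD over the 3 KSR lines had a median of 0.15 over the members and 0.16 over all genes, and was largest for Cenpk at 0.46. No member differed by 2-fold between any pair of lines. Of all genes 0.777% were higher and 0.777% lower by that size in O4-4 than in O4-1, 1.44% and 1.39% in O4-4 than in O4-2, and 0.281% and 0.331% in O4-2 than in O4-1. The median difference was 0.05 for O4-4 against O4-1, 0.15 for O4-4 against O4-2 and -0.01 for O4-2 against O4-1. Against the KSR lines, iPS cells in 2i had a median difference of -0.04 and ES cells one of 0.01. No member and no other gene passed in either comparison (0.0% called, limma). At an unadjusted p under 0.05 there were 0 members and 1339 genes (6.72%) for iPS cells, and 1 member and 1746 genes (8.76%) for ES cells. With 1 array against 3 this does not show that the media act alike. The members farthest apart were Cenpk at -0.46 ± 0.40 in 2i iPS cells and -0.84 ± 0.40 in ES cells, and Cdc25b at 0.42 ± 0.34 and 0.64 ± 0.34. Line O4-1 in 2i against itself in KSR had a median of -0.01 over the members, with a range from -0.90 for Cenpk to 0.62 for Cdc25c.

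**Figure D4:**
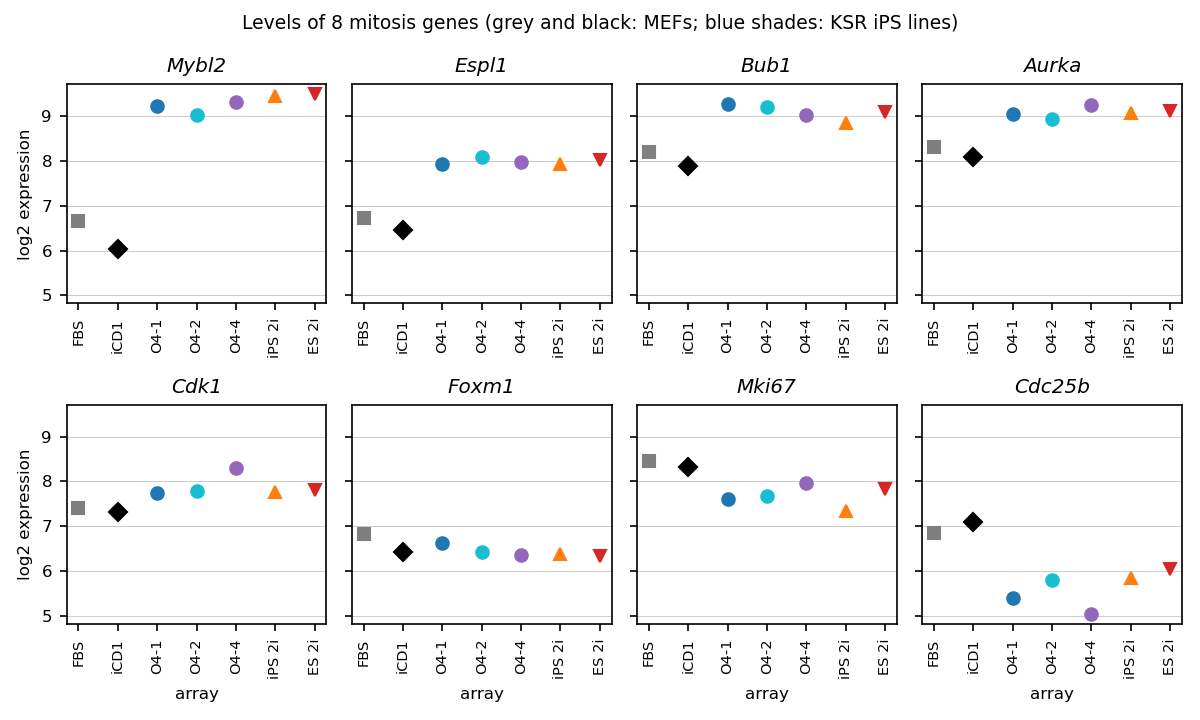
Log2 expression (vertical axis) of selected mitosis genes on the 7 arrays, 1 point an array, grouped by cell type and medium. Mybl2 runs from 6.03 in MEFs in iCD1 to 9.48 in ES cells, while Cdc25b and Mki67 are lower on all 5 pluripotent arrays than on both MEF arrays.

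The change of the members was also set beside their promoter elements. Of 30 measured members with a promoter window, 19 held a CHR element, and 10 of these rose, with a median difference of 0.73. Of the 11 without it 7 rose, with a median of 0.74. Over all genes 12.1% rose, or 21.3% at or above the median level. Of the 18 with CHR and CCAAT together 9 rose, with a median of 0.66, and of the 12 others 8 rose, with 0.76. Cdc20, Espl1 and Kif11, shown above with CCAAT upstream of CHR, rose by 0.91, 1.41 and 0.90. Prc1 and Bub3, with the same order, differed by 0.17 and 0.10 and did not pass. All 18 members with both elements have a CCAAT box upstream of a CHR element, so these named genes are only examples. Cdk1, with 1 like pair and a closer one upstream, and Mki67, with 2 CHR elements, differed by 0.60 and -0.64 and did not pass. Mybl2, whose window holds the short E2F core GGCGGGA at -13 but neither a CHR element nor a long E2F form, had the largest rise.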

How the data were processed

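Total RNA (100 ng per array) from 7 samples was hybridised to Affymetrix whole-transcript mouse arrays. The authors deposited 1 log2 expression value for each probe set and array, for which the submitters' processing notes name RMA and Partek; no version is named. RMA aligns the arrays' distributions, so only changes relative to the bulk of genes can be seen. Depth has no meaning for arrays, and the number of arrays limits the precision.

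Of 28853 probe sets, 21789 had 1 gene symbol in GEO's platform annotation, 1621 several and 5443 none here; 19938 genes were tested with limma 3.58.1 (R 4.3.3). Its two-sided p-values were adjusted by Benjamini-Hochberg across every gene, with a threshold of 0.05. KSR lines against the mean of both MEF arrays used 5 groups (2 residual degrees of freedom, from the KSR lines alone), and all pluripotent arrays against each MEF array used 3 groups (4 residual degrees of freedom). A MEF culture on 1 array is thereby assumed to vary like the pluripotent arrays. Fits were tried on simulated data in which every array varied like the KSR lines. That checks the estimated differences and not the assumption about the MEF arrays.

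The members and lists were chosen with earlier results of these data known. Given in full were members past the threshold in the KSR comparison (at most the 10 largest rises and 10 largest falls) and the member with the largest absolute difference of each role; from other lists, up to 4 genes with the largest differences, with genes at the low end added after their values were seen. Alternatives were quantile normalisation, mean over probe sets, leaving out genes below the median level, an intensity trend, other references or groupings, and leaving out each pluripotent array. Promoter windows came from RefSeq and were searched on both strands.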

Additional observations from a re-analysis of the deposited data

Results flagged for a closer look

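Among the 5 pluripotent arrays, 1 array stood apart from the other 4 in 4 of the 37 mitosis genes checked, by a gap that took more than Dixon's critical share for 5 arrays (0.71) of the range; chance alone gives this in about 1 in 20 groups. Cdk1 read 8.31 in line O4-4 and 7.75 to 7.81 on the others (gap 0.887 of the range). Ttk read 7.99 in O4-1 in KSR and 7.43 to 7.57 on the others (0.755). Kif2c read 8.78 in O4-2 and 8.92 to 8.96 on the others (0.793), a small step in log2 units. Foxm1 read 6.62 in O4-1 in KSR and 6.34 to 6.42 on the others (0.712).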

How the results depend on the processing

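The member medians against MEFs stayed above 0 under each alternative run, while the counts of members moved; those of iPS and ES cells in 2i against KSR ranged from -0.09 to 0.01 and from -0.04 to 0.04 with 1 array left out. In the KSR comparison the count of fallen members became 2 after quantile normalisation, with genes below the median level left out and with 5 pluripotent against 2 MEF arrays, and 0 with FBS or iCD1 as the only reference; 7 rose with FBS as the only reference. Leaving out 1 pluripotent array gave 0 to 18 risen and 0 to 1 fallen members, and -0.75 to -0.68 for the mitosis median minus the replication median. Against MEFs in FBS, 2 members fell after quantile normalisation and with genes below the median level left out, and the 5-group fit gave 7 risen and a difference of list medians of -0.71; leaving out 1 array gave 12 to 15 risen, 0 to 1 fallen and -0.68 to -0.60. Against MEFs in iCD1, the 5-group fit gave 0 fallen and -0.67; leaving out 1 array gave 17 to 18 risen, 0 to 1 fallen and -0.76 to -0.67. The cause of these shifts was not tested beyond the fewer arrays or genes in a fit. Background correction and slide as a block were not run, since scanner values were not used here. No paired analysis was possible because the groups compared share fewer than 2 replicate numbers. With 2 to 4 residual degrees of freedom, a member that did not pass is not shown to be equal.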

Other observations

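Mitosis genes outside the list gave values close to those of the members. Of 61 other mitosis genes 30 rose and none fell in the KSR lines (49.2%, against 12.1% of all genes), with a median log2 difference of 0.54. The largest rises were those of 3 inner kinetochore genes, Cenpu by 1.63 ± 0.13, Cenpp by 1.60 ± 0.18 and Cenpm by 1.54 ± 0.30, and in Ccnf, which encodes cyclin F, by 1.44 ± 0.11. By role, 6 of 10 centromere genes, 4 of 11 outer kinetochore genes, 3 of 8 condensin genes, 7 of 15 spindle genes, 2 of 5 cytokinesis genes and 8 of 12 other regulators rose.

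The subunits of the anaphase-promoting complex showed no shared rise. Of 14 genes, which include the co-activator gene Fzr1 and the enzyme gene Ube2s beside the subunits, 1 rose (7.14%) and 3 fell. The median was 0.12, and the counts are near the 12.1% higher and 14.3% lower among all genes. The gene that rose was Ube2s and not a subunit. It had 2 probe sets and was read from the one with the higher mean, and the other set was not examined alone. The activator gene Cdc20 and the enzyme gene Ube2c, partners of the complex counted with the members, rose by 0.91 and 0.73. Cdc16 fell by 0.91 on the log2 scale, from 8.19 in FBS and 8.17 in iCD1 to 7.21, 7.24 and 7.36 in the KSR lines. Anapc4 fell by 0.87 and Anapc2 by 0.61, and Ube2s, which extends ubiquitin chains, rose by 0.57. Of 18 genes of the DREAM, MuvB and E2F families 3 rose (16.7%) and 1 fell, also near those shares of all genes. Tfdp2, an E2F partner, rose by 1.52 ± 0.09, E2f4, the E2F of the DREAM complex, by 1.25 ± 0.13, and Lin52, a MuvB subunit, by 0.55 ± 0.09. Lin52 was likewise read from 1 of 2 probe sets. Rbl2, which encodes the pocket protein p130 of the DREAM complex, fell by 1.14 on the log2 scale, from 6.41 and 6.49 in MEFs to 5.26, 5.39 and 5.26.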
